A study of Mus musculus with 18 samples.

Results

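Disease-associated microglia are microglia, the resident macrophages of the brain, in a state described in mouse models of Alzheimer's disease, in ageing and around degenerating tissue. In that state homeostatic genes are lowered and a set of lysosomal, lipid-handling, secreted and surface proteins is raised, in part through the receptor Trem2. The 10 genes described here are effectors of that set, chosen by name out of 55414 gene identifiers in the count table. Cst7, Lyz2, Lgals3, Igf1 and Spp1 encode soluble proteins, and Axl, Itgax, Clec7a, Cd9 and Gpnmb encode proteins of the cell surface or of internal membranes.

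RNA came from microglia purified from mouse brain, in 4 groups given by sex and by Chd8 genotype. Female mice gave 4 KO and 4 WT libraries, and male mice 5 KO and 5 WT libraries. Chd8 is a chromatin remodeler and a known autism risk gene. The allele, the number of altered copies, the cells in which it was altered, and the strain, age and litter of the mice are not given in the labels, and neither is the meaning of the prefix HX that every title carries. No label says whether a library pools animals. Bulk MARS-seq was used, in which the 3' ends of polyadenylated transcripts are read and a unique molecular identifier (UMI) marks each molecule copied. Levels are UMIs per 1000000 (CPM) scaled by TMM, a correction for differences in library composition. A gene was called where the edgeR p, adjusted by Benjamini-Hochberg over the 10948 genes that passed the filter on low counts, was under 0.05.

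The libraries held 435838 to 9149144 UMIs, and the shallowest were female KO replicate 33 and female WT replicate 34 (458075). Reads per UMI fell into 3 separate ranges, and the highest (5.52 to 7.26) held 3 of the 4 female WT libraries, 1 female KO library and no male library. Sex, and genotype within females, are therefore both partly confounded with this range. Chd8 itself lay at 96.4 to 116 CPM in male KO and 135 to 167 CPM in male WT, and at 116 to 139 CPM in female KO and 132 to 186 CPM in female WT, where the ranges overlap. Its log2 fold change in KO was -0.54 (SE 0.10, edgeR adjusted p = 0.00171) in males and -0.44 (SE 0.12, edgeR adjusted p = 0.0547) in females. Averaged over the sexes it was -0.49 (SE 0.08, edgeR adjusted p = 0.000413). A 3' tag can lie outside the altered part of the gene, so these levels do not check the label. Of the genes that define homeostatic microglia, Tmem119 lay at 3279 to 5566 CPM of the library total over all 18 libraries, P2ry12 at 779 to 2626 CPM and Csf1r, which other macrophages share, at 6718 to 13468 CPM. The sum of 12 homeostatic markers was 31209 to 36080 CPM in female KO and 26657 to 29978 CPM in female WT, which did not overlap. In males it was 27728 to 31676 CPM in KO and 31216 to 35101 CPM in WT, which overlap. Neither difference passed (exact two-sided permutation test, adjusted p = 0.0952 in females and 0.0762 in males, over 24 tests). Monocyte markers summed to 42.0 to 583 CPM and neutrophil markers to 326 to 16245 CPM. P-values measure the spread between these libraries, which may in part be technical, since nothing says that each came from a separate animal. In bulk RNA, fewer cells of a type and less RNA per cell cannot be told apart.

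Promoter sequence was searched for 3 short motifs, to show what the genes share beyond their expression. RefSeq (GRCm38.p6) gave 12 promoters, 250 bases before to 50 after a gene start, for the 10 genes, with at least 1 for each. A gene was counted where any of its promoters held the motif, whereas the shares beside it are per promoter. The PU.1 motif GAGGAAGT, the site of a master regulator of macrophages, was found on either strand only in Spp1, against 3.20% of all 32851 promoters. The AP-1 motif TGACTCA or its reverse complement TGAGTCA was found in Itgax and Gpnmb, against 5.20% of all promoters. The E-box CACGTG of the MITF and TFE factors, which drive lysosomal genes, was found in none of the 10, against 7.15% of all promoters. The motif is in capitals in the 30-base windows of Spp1 (chromosome 5, plus strand, 104434987 to 104435016) and Itgax (chromosome 7, plus strand, 128129483 to 128129512), printed 5′ to 3′.
Spp1: caaaaccagagGAGGAAGTgtaggagcagg
Itgax: cccacctcctcTGAGTCAcgctgacaactt
These matches are letters in a window and were not measured as bound sites.

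Gpnmb, a transmembrane glycoprotein of lipid-laden macrophages and among the most used markers of the strongly activated state, was at the detection limit. It received 2 UMIs out of 50005763 over all 18 libraries, 1 each in female KO replicates 16 and 1, and 0 in the other libraries. The filter on low counts left it out, and no comparison was made for it. The other 9 genes were tested in every comparison, with 24 to 20920 UMIs per group except Igf1 in male WT (19).

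Cst7 encodes cystatin F, an inhibitor of cathepsins in lysosomes, and lies on chromosome 2 (150570415 to 150578944, GRCm38). It was lower in KO than in WT in both sexes. The female KO libraries were at 11.3, 12.6, 13.8 and 23.2 CPM and the female WT libraries at 26.9, 29.4, 37.6 and 46.1 CPM. The male KO libraries were at 5.48, 8.53, 10.3, 13.9 and 14.4 CPM and the male WT libraries at 20.7, 21.6, 23.9, 26.03 and 28.4 CPM. In neither sex did KO and WT overlap, and the highest KO library of all, female replicate 33, was also the shallowest. Cst7 fell 2.67-fold in females (log2 fold change -1.41, SE 0.26, edgeR adjusted p = 0.00809) and 2.29-fold in males (-1.19, SE 0.21, edgeR adjusted p = 0.000913). Below, the value after ± is the SE for a log2 fold change and the SD for a level. The effects of both sexes differed by -0.22 (95% interval -0.87 to 0.43, edgeR adjusted p = 0.930), and averaged over the sexes it was -1.30 ± 0.17 (edgeR adjusted p = 3.68e-05). The male call held in all 30 alternative analyses. The female call was lost when females were fitted alone (edgeR adjusted p = 0.103), with a covariate for the range of reads per UMI (edgeR adjusted p = 0.0560), and without female WT replicates 30, 34 and 39 (edgeR adjusted p = 0.0677), with a log2 fold change of -1.33 to -1.75 in these 3.

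**Figure D1:**
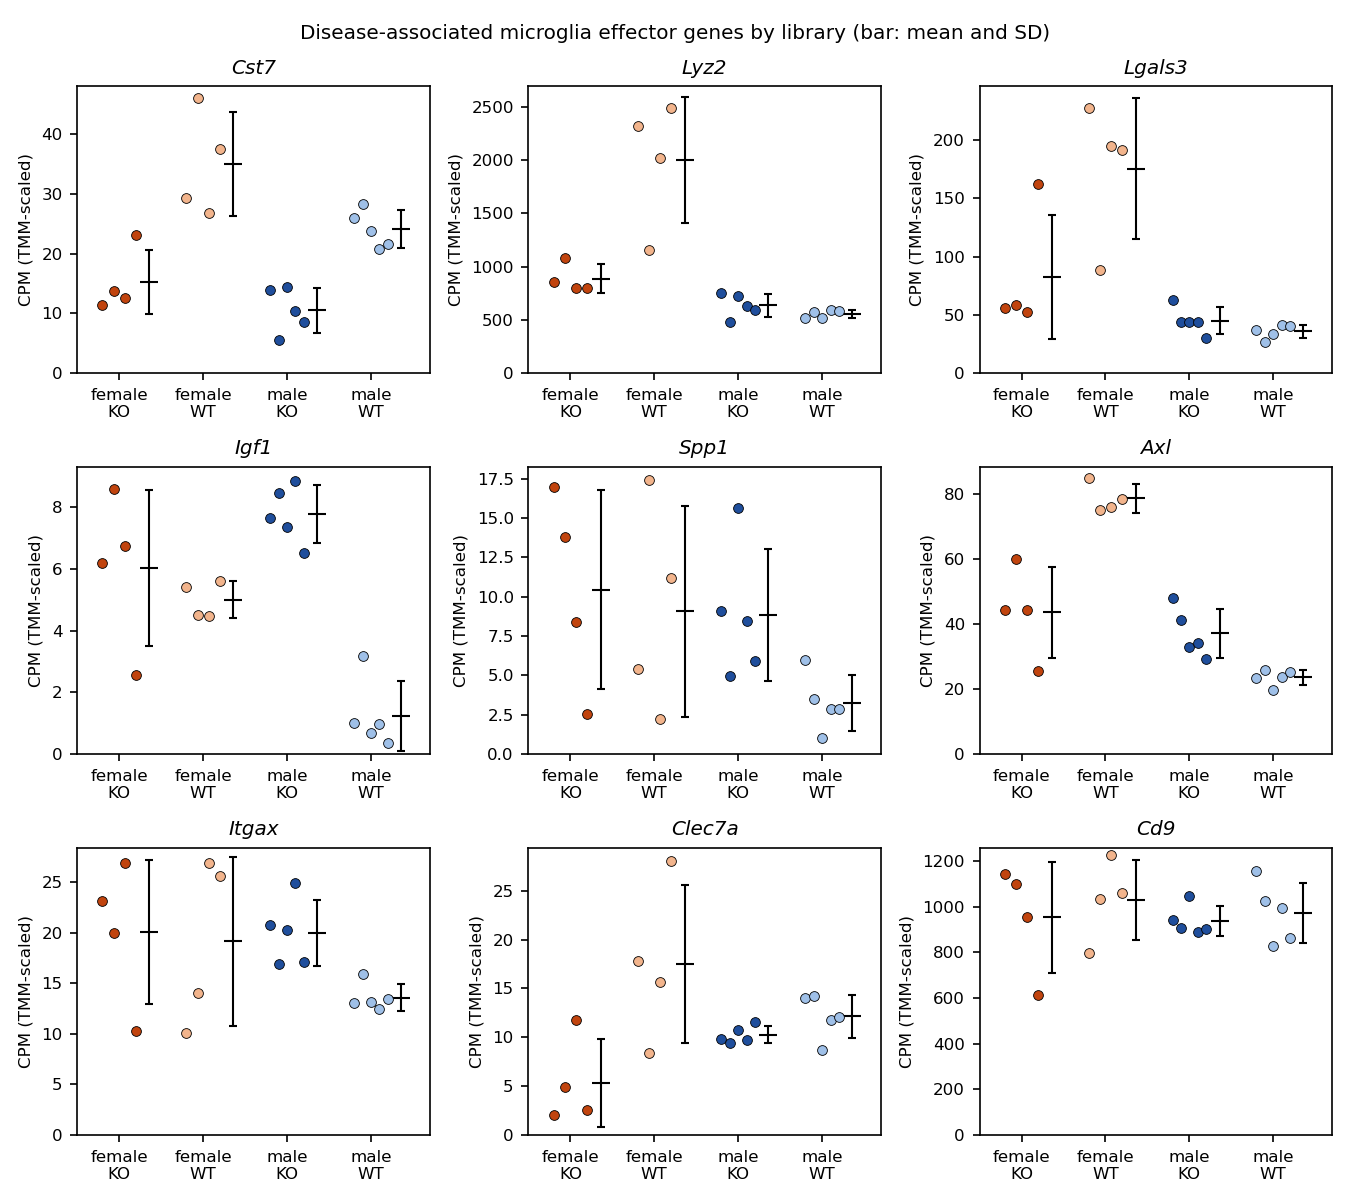
TMM-scaled CPM of the 9 tested genes in each library (vertical axes, from 0) by group (horizontal axes), with the group mean and SD as a bar beside the points. Cst7 is lower in both KO groups, Lyz2 and Lgals3 are highest in female WT, Igf1 is lowest in male WT, and Cd9 spans 612 to 1227 CPM.

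Lyz2 and Lgals3 were highest in female WT. Lyz2 is lysozyme M, an enzyme that cleaves bacterial cell walls and that monocytes and neutrophils also make in quantity (chromosome 10, 117277331 to 117282321). It was at 797, 798, 857 and 1083 CPM in female KO and at 1159, 2022, 2317 and 2492 CPM in female WT. No female KO library reached a WT library, and WT replicate 31 was the lowest of the WT libraries. The male libraries lay at 481 to 747 CPM in KO and 514 to 591 CPM in WT, below every female library. In female KO Lyz2 fell 2.25-fold (log2 scale -1.17 ± 0.18, edgeR adjusted p = 0.00295), while in male KO its log2 fold change of 0.19 ± 0.16 did not pass (edgeR adjusted p = 0.617). The KO effect differed between the sexes by -1.36 ± 0.24 (female minus male, edgeR adjusted p = 0.0147), a call that was lost in 3 of 28 alternatives. Without female WT replicate 30 the difference was -1.28 (edgeR adjusted p = 0.0560), without male KO replicates 6, 9 and 17 it was -1.30 (edgeR adjusted p = 0.166), and without female WT replicates 30, 34 and 39 it was -0.57 (edgeR adjusted p = 0.662). Lyz1 is a closely similar neighbouring copy, and reads shared between them may have been split or dropped.

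Lgals3 encodes galectin-3, a lectin that binds beta-galactosides at the surface and at damaged lysosomes (chromosome 14, 47367751 to 47386160). The female KO libraries were at 52.7, 56.1, 58.6 and 162 CPM and the female WT libraries at 88.2, 191, 195 and 228 CPM. KO replicate 33, the shallowest library, stood alone above WT replicate 31, the lowest WT library, so the groups overlap. Male levels were 30.0 to 63.1 CPM in KO and 26.9 to 41.1 CPM in WT. Lgals3 fell 2.46-fold in female KO (-1.30 ± 0.31 on the log2 scale, edgeR adjusted p = 0.0279) and stood at 0.31 ± 0.27 in male KO (edgeR adjusted p = 0.623). The female call was lost in 9 of 29 alternatives, among them without any 1 of female KO replicates 16, 1 and 7 or of female WT replicates 34 and 30 (edgeR adjusted p = 0.0593 to 0.113). Another was the covariate for the range of reads per UMI (-1.06, edgeR adjusted p = 0.109). The difference between the sexes did not pass (-1.61 ± 0.41, edgeR adjusted p = 0.111). It did pass in 6 of 28 alternatives, among them without female KO replicate 33 (-1.94, edgeR adjusted p = 0.0138) and without female WT replicate 31 (-1.86, edgeR adjusted p = 0.0131).

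Markers of monocytes and neutrophils were also examined in females. The monocyte markers summed to 108, 136, 141 and 188 CPM in female KO and to 183, 423, 446 and 583 CPM in female WT, where replicate 31 was again the lowest. Of the 10 markers 9 had a lower mean in female KO, and the sum did not pass (exact two-sided permutation test, p = 0.0571, adjusted p = 0.152 over 24 tests). Singly, 4 of 7 tested markers fell, where 1.83% of all tested genes did. The inflammatory monocyte antigen Ly6c2 had means of 12.2 CPM in female KO, 68.2 CPM in female WT, 6.69 CPM in male KO and 9.34 CPM in male WT. Neutrophil markers summed to 1026 to 5378 CPM in female KO and 2221 to 16245 CPM in female WT, which overlap, and this sum did not pass either (exact two-sided permutation test, p = 0.200, adjusted p = 0.320). All 12 neutrophil markers had a lower mean in female KO, and 8 of 12 fell, against the same 1.83%. Their part in the fall of Lyz2 and Lgals3 was not tested. Without female WT replicates 30, 34 and 39, the libraries with the highest monocyte sums, 1 female WT library is left, which is then taken to vary like the other groups, and the log2 fold change of Lyz2 was -0.38 (edgeR adjusted p = 0.536) and that of Lgals3 -0.32 (edgeR adjusted p = 0.846).

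**Figure D2:**
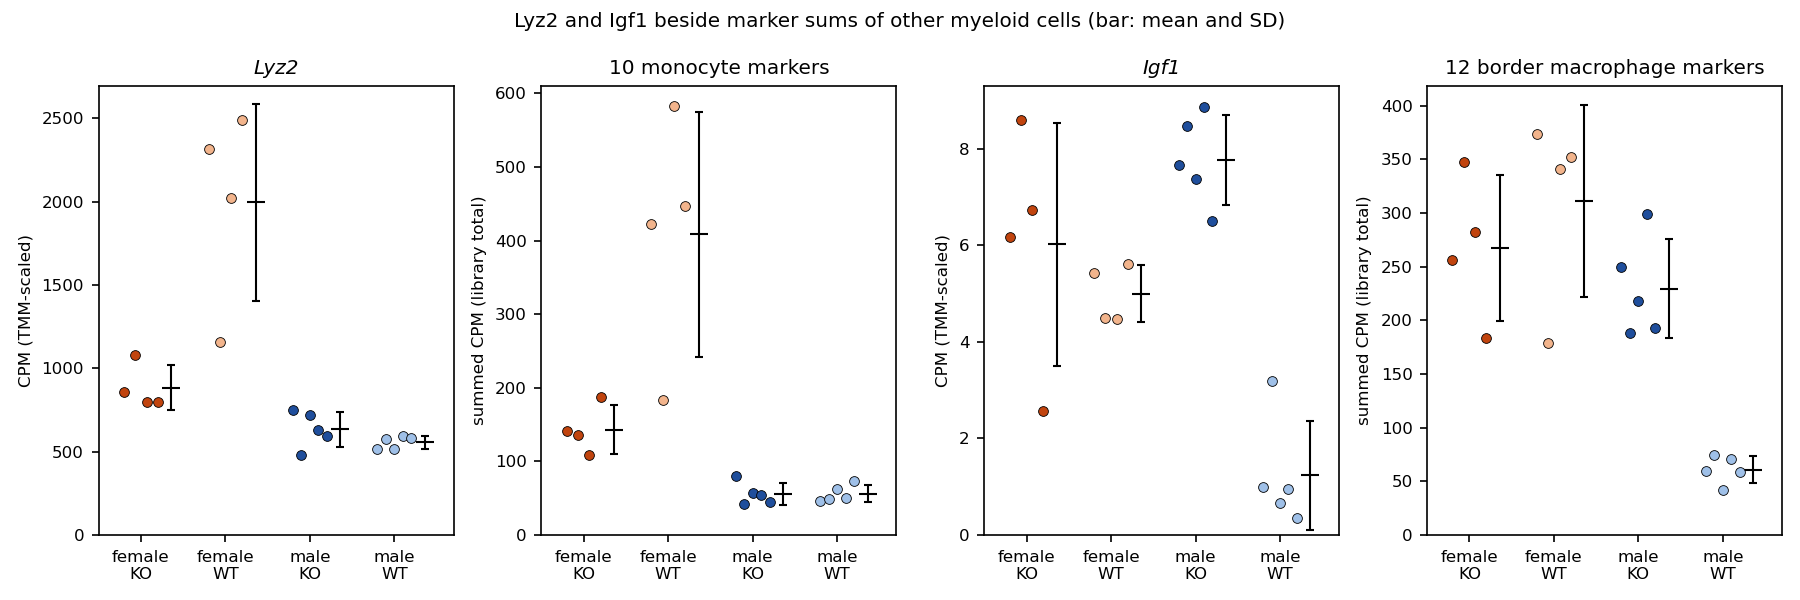
Lyz2 and Igf1 (TMM-scaled CPM) beside the summed CPM of 10 monocyte markers and of 12 border-associated macrophage markers (Stab1 left out), by group and library, with mean and SD as a bar. Lyz2 and the monocyte sum are both highest in female WT replicates 30, 34 and 39, and Igf1 and the border macrophage sum are both lowest in male WT.

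Igf1 and Spp1, the secreted growth factor and matricellular proteins of the set, were lowest in male WT. Igf1 encodes insulin-like growth factor 1, which supports neurons and myelination (chromosome 10, 87858265 to 87937042). It was at 6.50, 7.37, 7.66, 8.46 and 8.86 CPM in male KO and at 0.354, 0.673, 0.957, 1.001 and 3.19 CPM in male WT. These groups did not overlap, and the WT libraries rested on 1 to 11 UMIs each, of which WT replicate 11 held the most. Female KO libraries were at 2.57, 6.18, 6.73 and 8.60 CPM and female WT libraries at 4.48, 4.50, 5.42 and 5.60 CPM, each below the highest male KO library and, but for KO replicate 33 at 1 UMI, above every male WT library. In male KO Igf1 rose 5.77-fold (2.53 ± 0.36 on the log2 scale, edgeR adjusted p = 0.000136), a call that held in all 30 alternatives, over 2.31 to 3.49. In females it was 0.43 ± 0.41 (edgeR adjusted p = 0.680), and the difference between the sexes did not pass (-2.10 ± 0.56, edgeR adjusted p = 0.160) except without male WT replicate 11 (-2.88, edgeR adjusted p = 0.0288). The antisense gene Igf1os overlaps Igf1, and with the strand setting not stated its reads cannot be told apart.

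Spp1 encodes osteopontin, a secreted ligand of integrins and CD44 (chromosome 5, 104435118 to 104441050), whose PU.1 window is printed above. It was at 4.98, 5.89, 8.44, 9.12 and 15.7 CPM in male KO and at 1.01, 2.83, 2.87, 3.47 and 6.01 CPM in male WT. Male WT replicate 10 lay above the 2 lowest KO libraries. Spp1 rose 2.79-fold in male KO (1.48 ± 0.43 on the log2 scale, edgeR adjusted p = 0.0402). In females it ranged from 2.57 to 17.0 CPM in KO and from 2.24 to 17.4 CPM in WT, with means of 10.4 and 9.07 CPM (log2 fold change 0.18 ± 0.47, edgeR adjusted p = 0.914). Of the 4 male calls this one was lost most often, in 10 of 30 alternatives, among them uncorrected read counts (edgeR adjusted p = 0.108) and leaving out any 1 of male KO replicates 36, 6 and 17 or of male WT replicates 13, 37, 11 and 14 (edgeR adjusted p = 0.0660 to 0.142).

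Markers of border-associated macrophages, which sit along vessels and meninges, were examined beside Igf1 and Spp1. The 13 markers summed to 908 to 1213 CPM in male KO and 851 to 1077 CPM in male WT, which overlap and did not pass (exact two-sided permutation test, p = 0.0794, adjusted p = 0.190). Stab1 supplied 85.7% of this sum in males, with means of 838 CPM in male KO and 891 CPM in male WT, and was set aside after its values were seen, so that the following sums carry no test. The other 12 markers summed to 188 to 299 CPM in male KO, 41.6 to 74.4 CPM in male WT, 184 to 347 CPM in female KO and 179 to 373 CPM in female WT. Of the 12 markers of the whole list that were tested in males, 8 rose and 0 fell, where 3.37% of all tested genes rose, and 12 of 13 had a higher mean in KO. The reductase Cbr2 had means of 42.0 CPM in male KO, 7.44 CPM in male WT, 46.3 CPM in female KO and 64.7 CPM in female WT. Markers of neurons (69.2 to 331 CPM in male KO, 14.1 to 38.1 CPM in male WT), astrocytes (255 to 511 and 131 to 180 CPM), the oligodendrocyte lineage (243 to 826 and 101 to 153 CPM) and lymphocytes (89.0 to 101 and 58.3 to 78.5 CPM, 97.1% from Cd79b) were higher in male KO (exact two-sided permutation test, p = 0.00794 and adjusted p = 0.0476 for each). The lymphocyte sum was almost wholly Cd79b and does not stand for lymphocytes as a whole. Of its 9 markers, 5 had a higher and 3 a lower mean in male KO. The part of other cell types in the rise of Igf1 and Spp1 was not tested. Without male KO replicates 6, 9 and 17, which held the most neuronal transcripts, Igf1 stayed called and Spp1 did not (log2 fold change 1.18, edgeR adjusted p = 0.306).

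Axl, a receptor tyrosine kinase that binds apoptotic cells through the bridging ligand Gas6 (chromosome 7, 25757273 to 25788705), changed in opposite directions in the 2 sexes. Female KO libraries were at 25.7, 44.3, 44.3 and 60.2 CPM and female WT libraries at 75.3, 76.1, 78.4 and 85.2 CPM. Male KO libraries were at 29.2, 32.8, 34.2, 41.3 and 48.1 CPM and male WT libraries at 19.8, 23.5, 23.6, 25.2 and 25.8 CPM. In neither sex did the groups overlap, and the KO groups of both sexes overlapped each other while the WT groups lay far apart. Axl fell in female KO (log2 fold change -0.75 ± 0.18, 1.68-fold lower, edgeR adjusted p = 0.0286) and rose in male KO (0.63 ± 0.16, 1.55-fold higher, edgeR adjusted p = 0.0162). The KO effect differed between the sexes by -1.39 ± 0.24 (edgeR adjusted p = 0.0147), a call lost in 5 of 28 alternatives, among them without female WT replicate 30 (-1.34, edgeR adjusted p = 0.0560). The direction in each sex held in every alternative (-1.10 to -0.65 in females, 0.43 to 0.72 in males). The female call was lost in 9 of 29 alternatives, among them without any 1 of KO replicates 16 and 1 and WT replicates 34 and 30 (edgeR adjusted p = 0.0508 to 0.104). It was also lost with the covariate for the range of reads per UMI (-0.87, edgeR adjusted p = 0.0660). Without the highest range, which leaves 1 female WT library, the female value was -0.65. The male call was lost in 3 of 30 alternatives. These were without KO replicate 6 (0.52, edgeR adjusted p = 0.0618), without KO replicates 6, 9 and 17 (0.43, edgeR adjusted p = 0.347) and on uncorrected read counts (0.48, edgeR adjusted p = 0.548). Replicates 6, 9 and 17 held the most neuronal transcripts.

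Itgax, Clec7a and Cd9 were not called within a sex. Itgax is CD11c, the integrin alpha chain that pairs with Itgb2 (chromosome 7, 128129547 to 128150657), and its AP-1 window is printed above. It was at 16.9 to 24.9 CPM in male KO and 12.4 to 15.9 CPM in male WT, which did not overlap, with a log2 fold change of 0.55 ± 0.21 (edgeR adjusted p = 0.131). The male difference passed with the males fitted alone (edgeR adjusted p = 0.0226). In females its libraries ranged over 10.3 to 26.9 CPM in KO and 10.1 to 26.9 CPM in WT (log2 fold change 0.31 ± 0.27, edgeR adjusted p = 0.642).

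Clec7a is Dectin-1, a lectin receptor for fungal beta-glucan that signals through Syk and Card9 (chromosome 6, 129461591 to 129472779), and the GENCODE annotation lists it as a polymorphic pseudogene. Female KO libraries were at 2.06, 2.57, 4.91 and 11.8 CPM and female WT libraries at 8.43, 15.7, 17.8 and 28.01 CPM. KO replicate 16 lay above WT replicate 31, so the groups overlap, and the KO libraries rested on 1 to 42 UMIs. The female log2 fold change of -1.43 ± 0.40 missed the threshold (edgeR adjusted p = 0.0554) and passed in 7 of 29 alternatives, among them without KO replicate 16 (-2.22, edgeR adjusted p = 0.0134), without KO replicate 33 (-1.36, edgeR adjusted p = 0.0488), without WT replicate 31 (-1.72, edgeR adjusted p = 0.0169) and with DESeq2 (-1.48, adjusted p = 0.0303). Male KO libraries were at 9.46 to 11.6 CPM and male WT libraries at 8.74 to 14.2 CPM (-0.22 ± 0.29, edgeR adjusted p = 0.781). Averaged over the sexes Clec7a was called (-0.83 ± 0.25, edgeR adjusted p = 0.0359), but in 14 of 28 alternatives, 11 of which leave out a single library, it was not (edgeR adjusted p = 0.0509 to 0.687).

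Cd9, a tetraspanin of the plasma membrane and of vesicles (chromosome 6, 125460266 to 125494791), had group means within 938 to 1031 CPM. Female KO had 954 ± 242 CPM and female WT 1031 ± 176 CPM (n = 4 each), while male KO had 938 ± 64.8 CPM and male WT 974 ± 132 CPM (n = 5 each). The log2 fold change was -0.10 (95% interval -0.42 to 0.22, edgeR adjusted p = 0.835) in females and -0.05 (-0.34 to 0.23, edgeR adjusted p = 0.913) in males. Female KO replicate 33, at 612 CPM, was the lowest library. The noncoding genes Gm28809 and Gm26728 overlap Cd9 on the other strand, and Gm42793 overlaps Spp1 on the same strand, so reads of each pair cannot be told apart.

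As counts, 4 of the 9 tested genes fell and 0 rose in female KO (Cst7, Lyz2, Lgals3, Axl), where 2.68% of all tested genes were called and 1.83% fell. In male KO, 3 rose (Igf1, Spp1, Axl) and 1 fell (Cst7), where 6.24% of all tested genes were called, 3.37% upward and 2.87% downward. Averaged over the sexes 1 rose (Igf1) and 3 fell (Cst7, Clec7a, Lyz2), against 9.5% called. The KO effect differed between the sexes for 2 of 9 (Axl, Lyz2), against 0.237% of all tested genes. KO and WT did not overlap for 3 of 9 in females and 4 of 9 in males, where the shares over all tested genes were 5.32% and 9.85%. The median log2 fold change of the 9 was -0.75 in females and 0.31 in males, and that of all tested genes 0.01 and -0.01. When females were fitted alone the female count was 0, and 0 of all 9188 genes then tested were called. It was 2 without female KO replicate 1 (116 of 11255 over all genes). It was also 2 without female WT replicate 34 (150 of 11130) or replicate 30 (71 of 11159). The male count was 2 without male KO replicate 6 (484 of 10907) or replicates 6, 9 and 17 (196 of 11639). On uncorrected read counts it was 2 as well (222 of 12128). The count for the difference between the sexes was 0 without female WT replicate 30, where 2 of 11159 genes were called. In the reported fit 293 of 10948 genes were called in females and 683 in males.

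**Figure D3:**
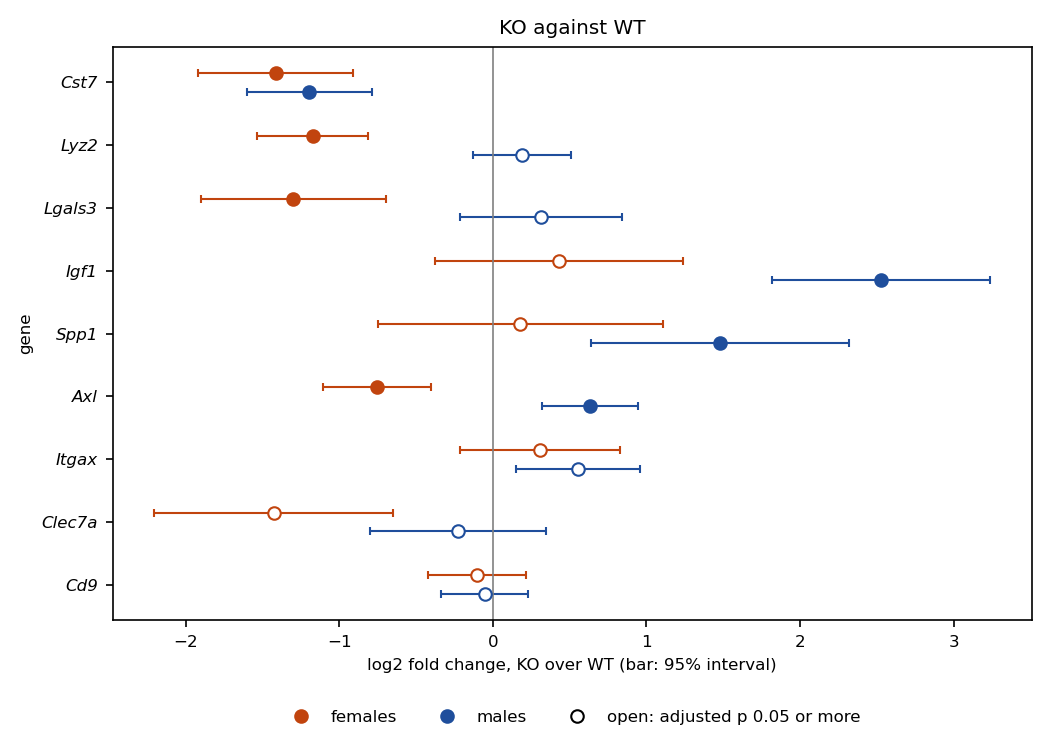
Log2 fold change of KO over WT for the 9 tested genes in females and males, with bars of the 95% interval and filled points where the edgeR adjusted p is under 0.05. Cst7 is negative in both sexes, Axl lies on opposite sides of 0, and Igf1 (2.53 in males) is the largest effect.

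Males and females were compared within each genotype. In WT, 5 of the 9 genes were lower in males and 0 higher, where 17.3% of all tested genes were called and 10.3% were lower. Lgals3 was 4.87-fold lower in male WT (-2.28 ± 0.28 on the log2 scale, edgeR adjusted p = 1.75e-05), Lyz2 3.59-fold lower (-1.84 ± 0.17, edgeR adjusted p = 8.12e-07), Axl 3.34-fold lower (-1.74 ± 0.17, edgeR adjusted p = 1.59e-06), Igf1 3.79-fold lower (-1.92 ± 0.46, edgeR adjusted p = 0.00689) and Spp1 3.31-fold lower (-1.73 ± 0.50, edgeR adjusted p = 0.0206). All but Spp1 had groups that did not overlap, 4 of the 9, against 18.2% of all tested genes. Spp1 lost its call without female WT replicate 31 (-1.18, edgeR adjusted p = 0.181). Cst7, with means of 24.1 CPM in male WT and 34.998 CPM in female WT, did not pass (-0.59 ± 0.22, edgeR adjusted p = 0.0713).

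In KO, 0 of the 9 passed between males and females (edgeR, 3 at an unadjusted p under 0.05), where 7.1% of all tested genes were called. The log2 fold changes ran from -0.67 for Lgals3 to 0.69 for Clec7a, with Axl at -0.35 ± 0.17 (edgeR adjusted p = 0.193) and Lyz2 at -0.48 ± 0.17 (edgeR adjusted p = 0.0903). Lyz2 did not overlap between the KO groups (481 to 747 CPM in males, 797 to 1083 CPM in females), 1 of the 9 against 9.22% of all tested genes. DESeq2 called 0 as well, and 1 was called without female KO replicate 16 or without female WT replicate 31. The sex difference changed with genotype, by the test given above, for Axl and Lyz2 only. These comparisons share their libraries with the KO comparisons. The monocyte, neutrophil and border-associated macrophage markers were also lower in male WT than in female WT (7 of 7, 12 of 12 and 10 of 12 tested members), where 10.3% of all tested genes were lower. Sex and the reads-per-UMI range are partly confounded, since the highest range holds only female libraries. With the covariate for this range Axl, Lyz2 and Lgals3 stayed called in WT. Igf1 (-2.12, edgeR adjusted p = 0.0754) and Spp1 (-2.15, edgeR adjusted p = 0.133) did not. Leaving out these 4 libraries leaves 1 female WT library, replicate 39, so that fit cannot separate sex from that library. There Igf1 was -2.06 and Spp1 -1.82. Without female WT replicates 30, 34 and 39, which also leaves 1 female WT library, Lgals3 was -1.28. Over all alternatives Axl ran from -1.86 to -1.62, Lyz2 from -2.15 to -1.03 and Lgals3 from -2.52 to -1.28.

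**Figure D4:**
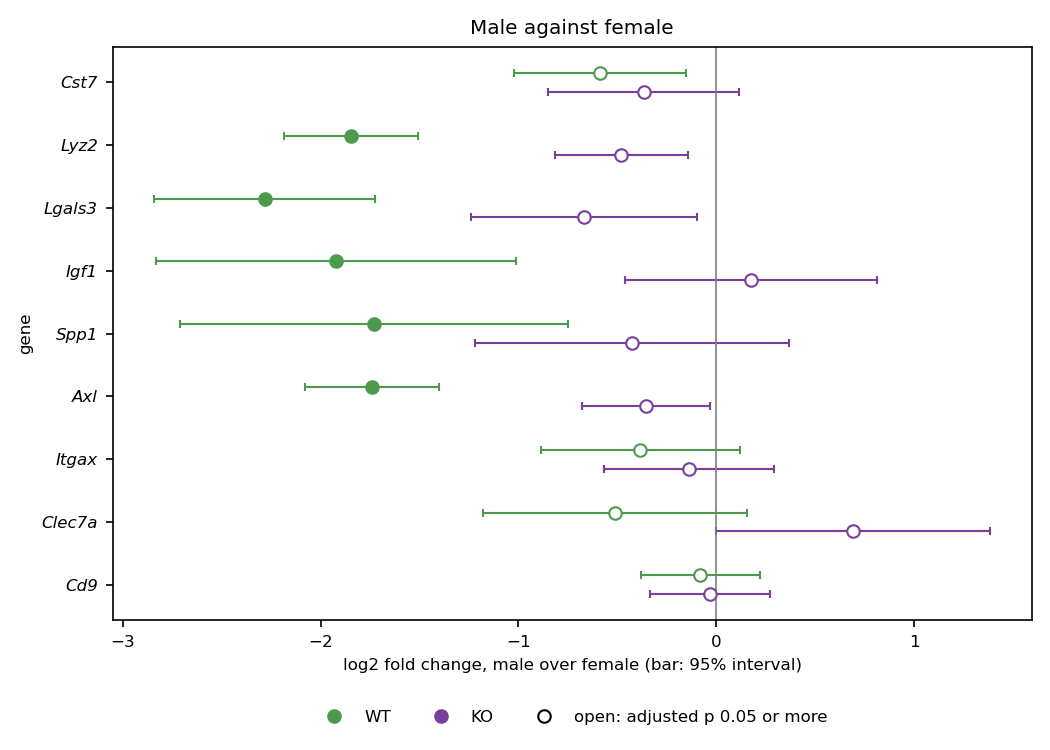
Log2 fold change of male over female for the 9 tested genes in WT and in KO, with bars of the 95% interval and filled points where the edgeR adjusted p is under 0.05. In WT 5 genes are called, all lower in males, and in KO none is.

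By mean level, female WT was the highest group for Cst7, Clec7a, Axl, Lyz2, Lgals3 and Cd9, and male WT the lowest for Igf1, Spp1, Itgax, Axl, Lyz2 and Lgals3. Most neighbours in these orders overlapped. The exceptions were female WT above female KO and male KO above male WT for Axl, female WT above female KO and female KO above male KO for Lyz2, and female WT above male WT for Igf1.

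Covariation between libraries of the same group was examined for the 9 genes. After group means were subtracted, 0 of 36 pairs passed over the 18 libraries (permutation within groups, lowest adjusted p = 0.398 for Pearson and 0.326 for Spearman). The strongest was Itgax with Cd9 (Pearson r = 0.712, permutation p = 0.0225, adjusted p = 0.398, Spearman rho = 0.593, permutation p = 0.0286, adjusted p = 0.326). It fell to r = 0.345 without the 2 libraries farthest from the median of Itgax, a removal that also narrows the range of Itgax. Cst7 and Lyz2, which both fell in female KO, had r = 0.0566 (permutation p = 0.844, adjusted p = 0.920, Spearman rho = 0.0795, permutation p = 0.789, adjusted p = 0.835, r = -0.120 without 2 libraries). The genes most like a member in this respect were sought among 8182 genes whose log2 CPM averaged 3 or more, as a description. Genes near that floor hold few UMIs in the shallowest libraries. The closest were Pf4 for Lyz2 (Pearson r = 0.841), Idnk for Cst7 (0.849), Mtmr9 for Igf1 (0.847), Mier1 for Axl (0.886) and Slc12a4 for Lgals3 (0.899). Pf4 is a chemokine and one of the border-associated macrophage markers.

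Of 32 other genes of the disease-associated state 31 were tested, and 3 fell and 0 rose in female KO, where 2.68% of all tested genes were called. These were Cd52, a surface glycoprotein (782 ± 135 CPM in WT and 465 ± 168 CPM in KO, n = 4 each, log2 fold change -0.77 ± 0.20), Capg, an actin-capping protein (-0.58 ± 0.15), and Cybb, the catalytic subunit of the phagocyte oxidase (-1.13 ± 0.30), whose call (edgeR adjusted p = 0.0477) was lost in most alternatives. In male KO 3 rose and 0 fell, where 6.24% of all tested genes were called, namely the lipid carrier Apoe (1.06 ± 0.16) and the chemokines Ccl3 (0.69 ± 0.20) and Ccl4 (0.52 ± 0.16). Apoe was at 3172 to 4235 CPM in male KO and 1490 to 2055 CPM in male WT, which did not overlap. The astrocyte sum and 8 of 12 tested border-associated macrophage markers were also higher in male KO, as given above. The part of these cells in the rise of Apoe, Ccl3 and Ccl4 was not tested. In female KO, 4 of 7 tested monocyte markers and 8 of 12 tested neutrophil markers also fell, as given above. Their part in the fall of Cd52, Capg and Cybb was not tested. Without female WT replicates 30, 34 and 39, which leaves 1 female WT library, the female value of Cybb was 0.24. In females Apoe was at 3801 to 4937 CPM in KO and 3200 to 6925 CPM in WT, and its KO effect differed between the sexes (-1.37 ± 0.24, edgeR adjusted p = 0.0147), though not without female WT replicate 30 (-1.30, edgeR adjusted p = 0.0560), without replicates 6, 9 and 17 of male KO (-1.32, edgeR adjusted p = 0.166) or without female WT replicates 30, 34 and 39 (-0.67, edgeR adjusted p = 0.587). Averaged over the sexes 5 rose and 1 fell, against 9.5% called over all tested genes, with Ccl3 (0.75 ± 0.16), the adhesion protein Cadm1 (0.63 ± 0.14), Lgals3bp, a ligand of galectin-3 (0.33 ± 0.10), and Capg (-0.42 ± 0.10) among them. Over the 31 genes the median log2 fold change was -0.06 in females and 0.09 in males. Between the sexes in WT, 8 of the 31 were lower in males and 4 higher, where 17.3% of all tested genes were called.

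Binding partners and relatives of the 10 genes were described from a list of 38, of which 32 were tested. In neither sex was the share called far from that of all tested genes (2.68% in females, 6.24% in males). In female KO 1 fell, the integrin chain Itga4, which binds osteopontin (-1.91 ± 0.47, edgeR adjusted p = 0.0317). The part of monocytes and neutrophils in this fall was not tested. In male KO 2 fell and 0 rose. Gas6, the ligand of Axl, had means of 391 ± 34.0 CPM in the 5 male WT libraries and 214 ± 17.0 CPM in the 5 male KO libraries (log2 fold change -0.87 ± 0.17, edgeR adjusted p = 0.00248), so that ligand and receptor moved in opposite directions in males. The integrin chain Itgb3, a partner for osteopontin, fell by 0.50 on the log2 scale (edgeR adjusted p = 0.0161). Between the sexes in WT, 7 of the 32 were lower in males and 2 higher, where 17.3% of all tested genes were called. Among the lower were the osteopontin receptor Cd44 (-3.43 ± 0.49), Itga4 (-3.11 ± 0.45) and Pros1, a second ligand of the Axl family (-1.20 ± 0.17). None of the 32 differed in KO effect between the sexes (edgeR, 4 at an unadjusted p under 0.05).

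**Figure D5:**
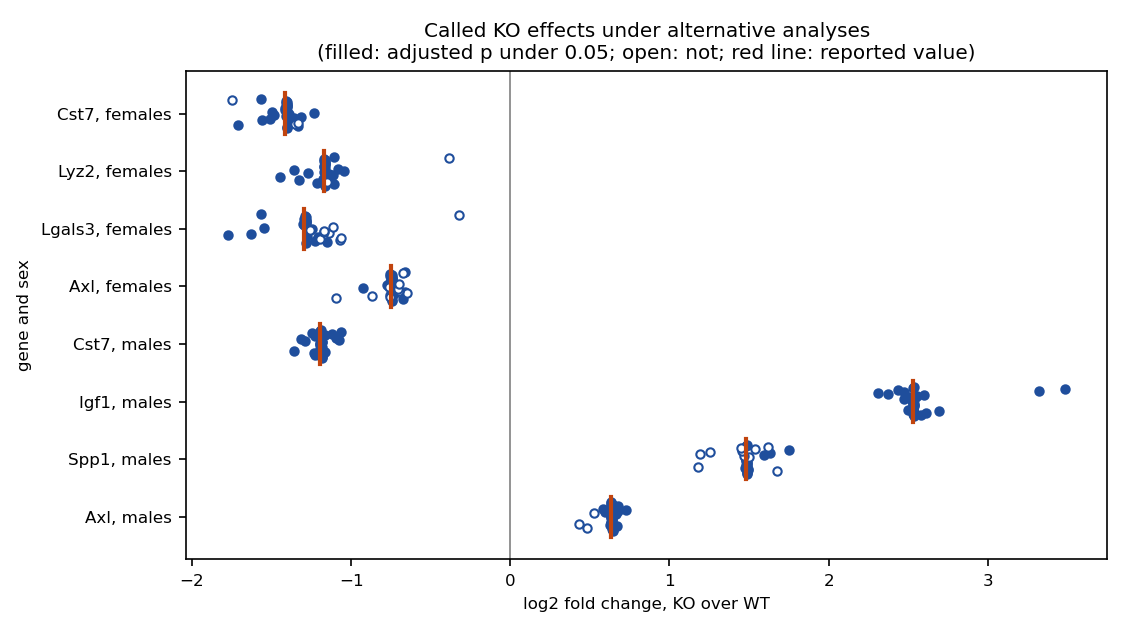
Log2 fold change of KO over WT for the 8 called effects under each alternative analysis (points, filled where the adjusted p is under 0.05), with the reported value as a red line. Cst7 and Igf1 in males stay filled throughout, and Lyz2 and Lgals3 in females come nearest to 0 without female WT replicates 30, 34 and 39.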

How the data were processed

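The deposited files give counts for each gene, once as reads and once UMI-corrected, neither scaled for depth. Per the submitters' processing notes cutadapt, STAR and HTSeq were used on mm10. Versions, annotation, strand setting and UMI method are not stated in the labels. Each table held 16 further columns of other libraries, which were not used. Symbols and coordinates came from GENCODE M21 (GRCm38, the mm10 assembly) for 52133 of 55414 identifiers, which held at least 99.9% of UMIs in each library. UMI-corrected counts were filtered with filterByExpr, which left 10948 genes, scaled by TMM, and fitted with 1 mean per group over all 18 libraries by the quasi-likelihood test of edgeR 4.0.16 (R 4.3.3). The test was checked on simulated counts, with changes planted in male KO and scored only for KO against WT in males. The other comparisons were not scored. The SE is the log2 fold change divided by the square root of F, and 95% intervals take a normal approximation. Marker sums are CPM of the library total. Alternatives included DESeq2 1.42.0 and sva 3.50.0. All 32 replicate pairs differed by more than sampling noise (chi-square per degree of freedom 2.92 to 14.0).

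The 10 genes, the lists and the tests were chosen with earlier results of these data known. Named were the 10 genes, Chd8, up to 4 called genes of lowest p per list and contrast, and the closest genes by Pearson correlation of group-centred log2 CPM among genes whose log2 CPM averaged 3 or more.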

Additional observations from a re-analysis of the deposited data

Results flagged for a closer look

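The KO effect differed between females and males by a test of the difference itself for Axl (-1.39, edgeR adjusted p = 0.0147), Lyz2 (-1.36, edgeR adjusted p = 0.0147) and Apoe (-1.37, edgeR adjusted p = 0.0147), each as female minus male on the log2 scale. Lgals3 in female KO replicate 33 stood apart at 162 CPM from the other 3 libraries of its group (52.7 to 58.6 CPM). This was 1 of 35 groups examined, and chance marks about 1 in 20.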

How the results depend on the processing

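No paired analysis was possible because the replicate numbers differ for every library, so no number is shared between groups. Alternatives that leave out female WT replicates 30, 34 and 39, the 2 shallowest libraries, or all but the lowest reads-per-UMI range were chosen after seeing the data. The counts of called genes among the 9 tested kept within 1.5 times the reported count elsewhere, and moved as follows. In females 4 became 0 with each sex fitted alone and 2 with a covariate for the range of reads per UMI. Over all tested genes the female calls went from 293 of 10948 to 0 of 9188 and 100 of 10948 in these. The female count also fell without female WT replicates 30, 34 and 39, which leaves 1 female WT library. In males 4 became 2 on uncorrected read counts and 2 without male KO replicates 6, 9 and 17. Without female WT replicates 30, 34 and 39 the averaged count went from 4 to 2. The count for the difference between the sexes went from 2 to 1 on uncorrected read counts, to 0 without male KO replicates 6, 9 and 17, and to 0 without female WT replicates 30, 34 and 39. Between the sexes in WT 5 became 3 with the covariate, 3 without the highest reads-per-UMI range and 3 without female WT replicates 30, 34 and 39, and in KO 0 became 1 with no filter (Lgals3), 1 without the highest range and 1 without female WT replicates 30, 34 and 39 (Lyz2 in both). Leaving out 1 replicate at a time gave 2 to 5 in females, 2 to 4 in males, 3 to 6 averaged, 0 to 3 for the difference, 4 to 6 between the sexes in WT and 0 to 1 in KO. The cause was not tested.

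Of the log2 fold changes of single genes, 2199 values under alternatives kept direction and call, 238 lost the call, 38 gained it and 37 changed sign, none of these a called effect among the 9. On uncorrected read counts Itgax in females was -0.12, Cd9 0.061 in females, 0.023 averaged, 0.077 for the difference, 0.18 between the sexes in WT and 0.10 in KO, and Igf1 -0.049 between the sexes in KO. With the covariate Spp1 was -0.20 and Itgax -0.25 in females. Without the highest range Itgax was -0.12 and Cd9 0.010 in females, and Cd9 0.060 for the difference. Without female WT replicates 30, 34 and 39 Spp1 was -0.55 and Cybb 0.24 in females, Itgax 0.11 for the difference and Clec7a 0.55 between the sexes in WT. Without the 2 shallowest libraries Cd9 was 0.16 in females, 0.054 averaged, 0.21 for the difference and 0.018 between the sexes in WT. With no filter Cd9 was 0.022 for the difference, 0.040 between the sexes in WT and 0.018 in KO, and without male KO replicates 6, 9 and 17 it was 0.033 for the difference. Leaving out 1 replicate gave -0.041 to 0.72 for Spp1 and -0.19 to 0.057 for Cd9 in females, -0.10 to 0.017 for Cd9 in males and -0.12 to 0.0018 averaged, -0.47 to 0.022 for Itgax and -0.15 to 0.11 for Cd9 as the difference, -0.17 to 0.013 for Cd9 between the sexes in WT, and -0.23 to 0.022 for Itgax and -0.18 to 0.077 for Cd9 in KO. Depth limits Igf1, Spp1 and Clec7a, with 19, 44 and 174 UMIs over the male WT libraries.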
